A study of Mus musculus with 12 samples.

Results

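Osteoclasts labelled Per2 knockout were compared with control osteoclasts from female mice. The comparison rests on the 3 libraries of each female group, 6 of the 12 libraries in the study. The other 6 are the matching male cultures, 3 control and 3 Per2 knockout. Monocytes from the marrow of mice aged 8 to 12 weeks had been grown with M-CSF, which keeps myeloid precursors alive and dividing, and with RANKL, which turns them into osteoclasts. RNA was taken on day 4, and all 4 groups had received both cytokines. Each group has 1 library in each of 3 labelled batches. In the library names the knockout is cKO. The labels give no strain, no recombinase or promoter that drives one, and no deleted exon, and they call the other genotype Control only. The title of the series gives PER1, a second clock repressor, and the gene name here is that of the sample labels. The replicates are called biological, but nothing ties each of them to a mouse of its own, and p-values therefore measure only the spread between these libraries. Values are FPKM, which divides the reads of a gene by its length and by a library total, and the genes compared are the 12102 of 55806 with at least 1 FPKM in at least 3 of the 12 libraries.

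PER2 represses the circadian clock: PER and CRY proteins enter the nucleus and inhibit CLOCK and BMAL1, the activators that drive their own genes. Osteoclasts form when myeloid precursors fuse under RANKL, a program run by the transcription factor NFATc1, and they resorb bone by pumping acid and secreting proteases. Interferon beta, a cytokine made by macrophage-lineage cells, acts through the receptor IFNAR and a transcription factor complex with STAT2 and IRF9 to raise a large set of antiviral genes, and it is known in mice to restrain osteoclast formation.

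The 6 female libraries held 13888150 to 17724559 reads assigned to genes. Those reads were 0.936 to 0.948 of the denominator behind the authors' FPKM in controls and 1.007 to 1.017 of it in knockouts, so results are given as deposited and after median-ratio rescaling, which used factors of 0.982 to 1.009. The osteoclast identity of the cultures was visible in both groups. Ctsk, the collagen-degrading cathepsin K, was between 4195 and 5798 FPKM in the 6 libraries, and Acp5, tartrate-resistant acid phosphatase, was between 1831 and 2799 FPKM. Genes of neutrophil granules were present as well, with S100a9 between 1091 and 1456 FPKM. Per2 was under 1 FPKM in every library and was not among the genes tested. Its level was 0.331, 0.530 and 0.368 FPKM in controls, from 31, 58 and 32 reads, and 0.258, 0.204 and 0.589 FPKM in knockouts, from 26, 18 and 52 reads. The groups overlapped, and the library labelled knockout replicate 3 was the highest of the 6 (ratio of means 0.86, exact two-sided permutation p = 0.6, where 3 against 3 libraries can give 0.1 at the smallest). Where the deletion lies is not known, so reads from a shortened transcript could be counted, and every direction below rests on the genotype labels. In cultures, fewer cells of a type and less RNA per cell cannot be told apart.

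Interferon-stimulated, antigen-presentation and macrophage genes were higher in female knockouts, and genes of ribosome assembly, splicing and cell division were lower. Limma called 3018 genes higher and 3009 lower at an adjusted p under 0.05, which is 49.8% of the genes tested, 24.9% in each direction. After median-ratio rescaling it called 3200 higher (26.4%) and 2813 lower (23.2%), 49.7% in all. All 3018 higher calls and 2813 of the lower calls were shared by both scalings, and 0 genes were called in opposite directions. The female groups did not overlap in 7078 of the genes tested (58.5%), which is the background for each gene below whose groups did not overlap. The filter on level was reached by 313 genes only with the female controls counted and by 163 only with the female knockouts counted. At least 2-fold differences on the log2(FPKM + 1) scale, which understates low genes, numbered 421 among the higher and 62 among the lower calls. At least 4-fold they numbered 107 and 5, and at least 8-fold 40 and 0. The median difference was 0.41 among higher and −0.33 among lower calls. With the assigned reads as the denominator the median of all genes moved to −0.10, with 2223 genes called higher (18.4%) and 4350 lower (35.9%). These shares and this median are the background for each count below that is given with assigned reads. Of the calls as deposited, 2222 of the higher and all 3009 of the lower were also called there. The male comparison run the same way called 0 genes by limma, with 822 at an unadjusted p under 0.05 and 2 called by voom.

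**Figure D1:**
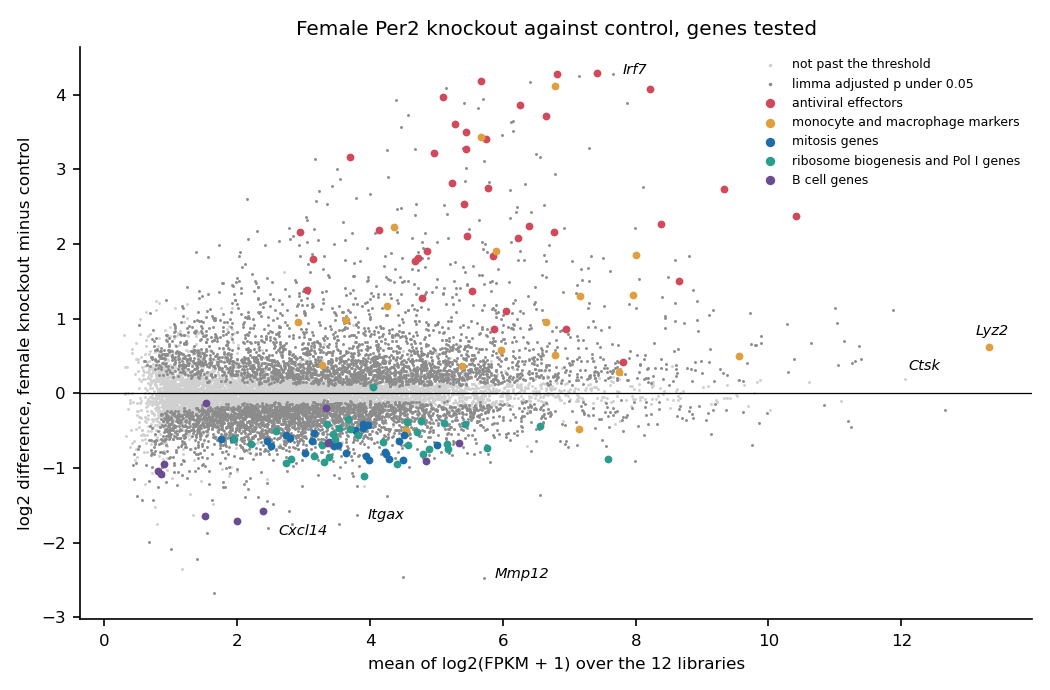
Log2 difference of female knockout minus control on the log2(FPKM + 1) scale (vertical axis) against the mean over the 12 libraries on that scale (horizontal axis), 1 point per tested gene, with dark grey for genes called by limma and colours for 5 gene lists. The antiviral effectors spread upward to beyond 4, while the mitosis and ribosome biogenesis genes sit below 0 with 1 exception. The B cell genes lie below 0, but 3 of the 11 reached the filter on level only with the female controls counted, so nothing is read from the position of those 3.

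Most called genes followed 1 pattern across the whole study. In 2540 of the 3018 genes called higher (84.2%), the 3 female controls lay below all other 9 libraries, and in 2471 of the 3009 called lower (82.1%) they lay above all 9. Over all 12102 genes tested, the female controls lay wholly below or above the other 9 in 5548. The calls already compare these controls with 3 of those 9 libraries, so part of the pattern follows from the choice of genes. The knockouts lay above all other 9 libraries in 219 of the higher calls (7.3%) and below them in 196 of the lower calls (6.5%). In 1470 of the higher calls (48.7%) and 830 of the lower calls (27.6%), the 3 knockouts lay between the female controls and all 6 male libraries. The comparison below is therefore one with female controls that stood apart from the other 3 groups. The share of reads from the mitochondrial chromosome also differed, at 3.12%, 3.05% and 2.82% for female controls against 2.28%, 2.51% and 2.12% for female knockouts. It was 1.47% to 1.75% in males, and its part in the results was not tested.

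The interferon system was higher at each step from ligand to effector. Ifnb1, interferon beta, had 0 reads in each female control, where 3 reads would be 0.214 to 0.270 FPKM. In knockouts it had 9, 6 and 6 reads, or 0.699, 0.531 and 0.530 FPKM, above that floor in every library (log2 difference 0.66 ± 0.13 SE, limma adjusted p = 0.00161). The call was lost with a pseudocount of 5 (adjusted p = 0.0525), and the male libraries ranged from 2.37 to 4.15 FPKM. Both receptor chains rose. Ifnar2 was 15.3, 16.5 and 15.4 FPKM in controls and 24.9, 21.8 and 23.7 in knockouts, a ratio of means of 1.49 (0.54 ± 0.06, adjusted p = 3.55e-05), and Ifnar1 had a ratio of 1.21 (adjusted p = 0.00102). The Ifnar1 call was lost with quantile normalization (adjusted p = 0.0697). Of the receptor's kinases, Tyk2 had a ratio of 1.42 and Jak1 of 1.12, and the Jak1 call was lost with assigned reads (adjusted p = 0.179). Jak2, a kinase of the interferon gamma receptor and of many cytokine receptors, was 13.2, 13.4 and 14.4 FPKM in controls and 25.2, 23.3 and 26.0 in knockouts, without overlap (ratio 1.82, 0.82 ± 0.06, adjusted p = 7.10e-07). Ifnb1, the receptor chains, these kinases and Irf9 below fall outside the rule for named genes and were chosen after their values were seen.

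The transcription factors downstream rose more than the receptor. Stat2 was 6.43, 6.36 and 8.05 FPKM in controls and 32.2, 26.9 and 39.1 in knockouts (ratio of means 4.71, 2.08 ± 0.12, adjusted p = 2.31e-07). Irf9, its DNA-binding partner, was 8.05, 8.09 and 9.77 against 16.8, 16.7 and 17.2 FPKM (ratio 1.96, 0.90 ± 0.07, adjusted p = 1.70e-06). Neither overlapped between the groups. Irf7, which drives the later wave of interferon genes, had the largest ratio of these factors at 20.7 (4.28 ± 0.13, adjusted p = 4.81e-09). Usp18, a protease that removes ISG15 and blocks IFNAR signalling, was 3.52, 3.12 and 4.52 FPKM in controls and 44.5, 36.6 and 55.1 in knockouts, a ratio of 12.2 with a wide gap between the groups (3.29 ± 0.14, adjusted p = 2.34e-08). Ptpn2, a phosphatase that damps cytokine signalling, was the 1 member that fell, with 10.8, 10.5 and 10.9 FPKM in controls and 9.03, 9.48 and 9.65 in knockouts (ratio 0.876, −0.17 ± 0.04, adjusted p = 0.00586). Of 23 tested genes for interferon ligands, receptors and signalling, 20 were called higher and 1 lower, with a median log2 difference of 0.54 (0.56 after median-ratio rescaling), beside −0.01 (0.00) over all genes tested.

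All 38 antiviral effectors on the list were tested and all 38 were called higher under both scalings and with assigned reads, with a median log2 difference of 2.25. Their share of assigned reads was 0.24%, 0.24% and 0.27% in controls and 1.04%, 0.90% and 1.16% in knockouts, and 1.83% to 2.09% in the male libraries. In all 38 the knockouts lay between the female controls and all 6 male libraries, an order seen in 2508 of the 12102 genes tested (20.7%) and in 48.7% of those called higher. Proximal promoters are shown because they carry the letters that the STAT and IRF factors are known to bind. A promoter could be matched for 29 of the 38 effectors. The 6 chosen are, among those 29, the ones of the effectors with the largest rise that have a set core in the 120 bases before the transcription start. It is GAAA and GAAA with 2 bases between them on either strand. The capitals mark that core, which reads TTTC, 2 bases, TTTC where it lies on the other strand. Sequences are from RefSeq on GRCm38.p6, 5′ to 3′ on the strand of the gene: Isg15 at chr4:156200819-156200938 (minus strand), Rsad2 at chr12:26456453-26456572 (minus), Ifit1 at chr19:34640769-34640888 (plus), Ifit1bl1 at chr19:34601969-34602088 (minus), Oas3 at chr5:120777660-120777779 (minus) and Oas1g at chr5:120887614-120887733 (minus).
Isg15: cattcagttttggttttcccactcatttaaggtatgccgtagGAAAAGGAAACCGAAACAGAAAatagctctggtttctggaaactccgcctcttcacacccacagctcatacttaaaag
Rsad2: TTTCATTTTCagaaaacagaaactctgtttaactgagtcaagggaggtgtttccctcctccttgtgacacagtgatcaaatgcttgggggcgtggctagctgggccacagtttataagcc
Ifit1: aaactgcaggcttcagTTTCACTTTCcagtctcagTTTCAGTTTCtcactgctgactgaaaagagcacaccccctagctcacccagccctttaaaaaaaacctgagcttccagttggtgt
Ifit1bl1: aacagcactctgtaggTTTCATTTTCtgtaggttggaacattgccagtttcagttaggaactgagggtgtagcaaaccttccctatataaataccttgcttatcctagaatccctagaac
Oas3: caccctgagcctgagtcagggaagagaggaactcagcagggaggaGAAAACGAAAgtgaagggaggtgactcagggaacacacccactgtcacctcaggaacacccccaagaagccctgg
Oas1g: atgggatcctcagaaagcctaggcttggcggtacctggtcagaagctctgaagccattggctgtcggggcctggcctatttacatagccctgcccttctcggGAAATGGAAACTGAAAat

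The core occurs 3 times in the Isg15 stretch, where the copies overlap, 2 times in those of Ifit1 and Oas1g and 1 time in the other 3, and the copy nearest to the start ends 3 to 111 bases before it. Windows of 300 bases around the start, 250 before and 50 after, could be matched by symbol for 8643 of the 11940 tested genes that have a symbol of their own, several with more than 1 start. The core was in 3.4% of all windows in the mouse table and in 3.4% of those of genes tested. It was in 5.9% of windows of genes called higher and in 2.5% of those called lower. Of the 107 genes called higher at least 4-fold, 76 had a window, and 52.3% of their windows, 45 of 86, held the core. Of the windows of the 29 antiviral effectors that had one, 44.7% held it. The E-box CACGTG, the sequence that CLOCK and BMAL1 bind, was in 10.4% of windows of genes tested, 9.5% of those called higher, 11.6% of those called lower and 1.2% of those at least 4-fold higher. The AP-1 core, TGANTCA, was in 5.4% of windows of genes tested and 22.1% of those at least 4-fold higher. The STAT core, TTC and GAA with 3 bases between them, was in 6.7% and 15.1%. Both strands were read, overlaps between the motifs were allowed, and a match is a stretch of letters, not a shown binding site.

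The proteins these genes encode act at different points of a virus's cycle. Ifit1, which binds viral RNA with a foreign cap, was 6.45, 6.44 and 8.91 FPKM in controls and 112, 85.5 and 126 in knockouts (ratio 14.9, 3.72 ± 0.15, adjusted p = 1.45e-08), and its relative Ifit1bl1 was 1.27, 1.18 and 1.34 against 28.6, 19.5 and 33.8 FPKM (ratio 21.6, 3.61 ± 0.20, adjusted p = 1.29e-07). Rsad2, viperin, which makes a chain-terminating nucleotide, was 2.76, 3.97 and 5.29 against 69.2, 55.3 and 89.1 FPKM (ratio 17.8, 3.86 ± 0.19, adjusted p = 5.35e-08). In all 3 the lowest knockout library was far above the highest control. Ifit2 and Ifit3b, of the same family on chromosome 19, had ratios of 23.1 and 29.1. Oasl1, a regulator of Irf7 translation in mice, was 2.11, 2.48 and 3.44 against 62.5, 54.8 and 79.2 FPKM (ratio 24.5, 4.18 ± 0.14, adjusted p = 5.20e-09). Oas3, which makes the 2′-5′ oligoadenylates that activate RNase L, was 8.47, 7.95 and 10.3 against 66.0, 56.8 and 73.6 FPKM (ratio 7.36, 2.75 ± 0.10, adjusted p = 7.88e-09), and Oas1g had a ratio of 6.5. Bst2, tetherin, which holds budding virus at the cell surface, was the most abundant of those named here at 119, 108 and 132 against 808, 719 and 880 FPKM (ratio 6.69, 2.73 ± 0.08, adjusted p = 4.81e-09). The groups did not overlap for any of these genes, as for 58.5% of all genes tested, and Ifit1, Ifit1bl1, Oas3 and Oas1g were named after their values were seen.

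**Figure D2:**
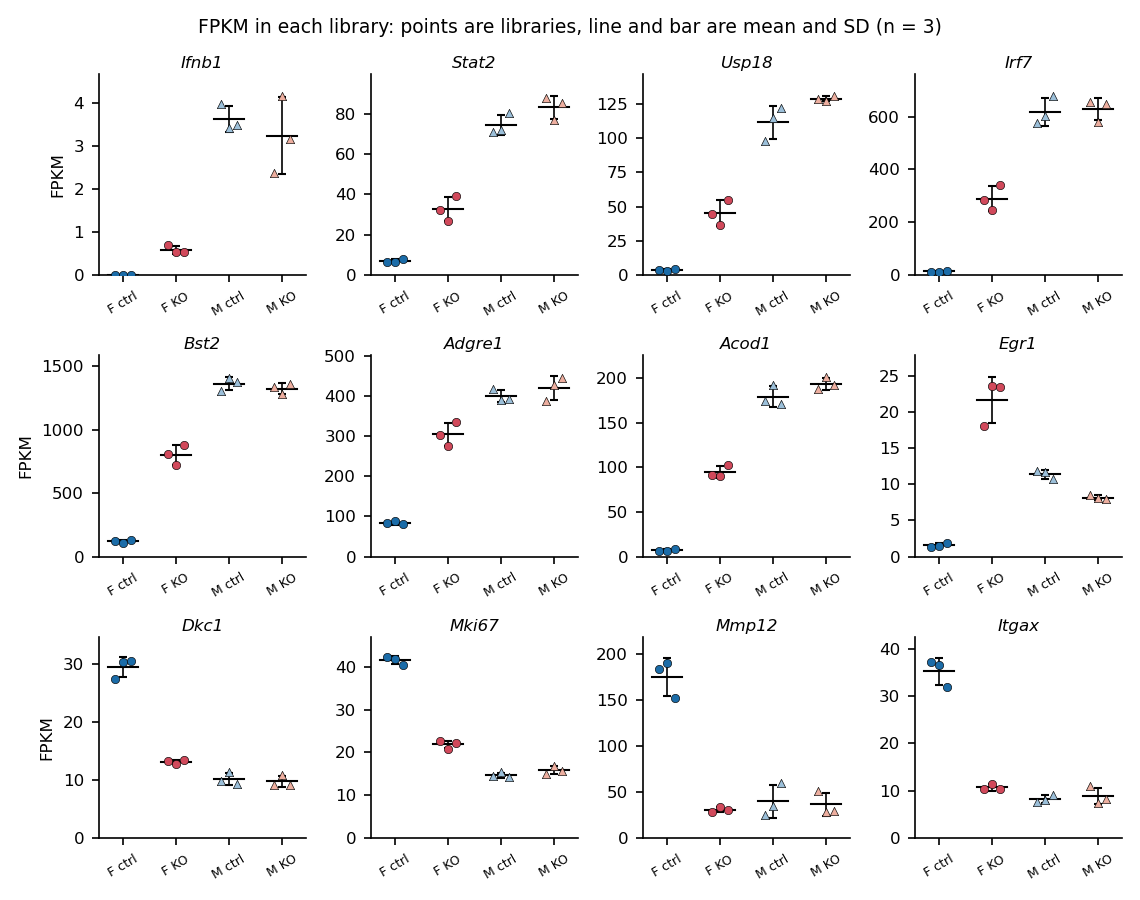
FPKM (vertical axes, linear from 0) of 12 genes in each of the 12 libraries, with circles for female and triangles for male libraries and a line and bar for mean and SD (n = 3). For Stat2, Usp18, Irf7, Bst2, Adgre1 and Acod1 the female knockouts sit between the female controls and the male libraries, while Egr1 is highest in the female knockouts and Mmp12 and Itgax are highest in the female controls.

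Guanylate-binding proteins and immunity-related GTPases, which attack vacuoles that hold intracellular pathogens, were higher in 12 of 13 tested, with a median log2 difference of 1.99. Irgm1, a regulator of the other GTPases, was 5.94, 6.02 and 7.34 FPKM in controls and 39.3, 32.8 and 43.2 in knockouts (ratio 5.97, 2.40 ± 0.09, adjusted p = 1.20e-08), and Gbp3 was 3.70, 3.32 and 3.32 against 26.8, 20.5 and 27.9 FPKM (ratio 7.27, adjusted p = 1.20e-08). Gbp8 was the exception, at 0.981, 0.932 and 0.998 against 1.47, 1.08 and 1.44 FPKM (adjusted p = 0.0809). Of 27 Toll-like receptors and nucleic acid sensors, 24 were called higher and 0 lower, with a median of 0.98. The 3 cytosolic receptors for double-stranded RNA moved together. Ddx58, RIG-I, was 6.04, 5.68 and 7.28 against 41.8, 35.8 and 45.3 FPKM (ratio 6.47, 2.52 ± 0.09, adjusted p = 6.78e-09). Ifih1, MDA5, was 2.72, 3.07 and 3.14 against 16.8, 15.3 and 17.9 FPKM (ratio 5.60, 2.15 ± 0.06, adjusted p = 4.81e-09). Dhx58, LGP2, had a ratio of 4.97 (2.20 ± 0.07, adjusted p = 4.81e-09), and none of these 3 overlapped between groups.

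Antigen presentation through MHC class I was higher from the proteasome to the cell surface. Of 20 tested genes 19 were called higher, with a median log2 difference of 1.11, and the other, H2-Q6, had an adjusted p of 0.0857. Tapbp, tapasin, which loads peptide onto MHC class I, was 49.6, 50.1 and 57.3 FPKM in controls and 153, 140 and 164 in knockouts (ratio 2.91, 1.52 ± 0.07, adjusted p = 2.54e-08). Tap2, a chain of the peptide transporter, was 18.5, 18.2 and 18.6 against 37.6, 35.5 and 37.8 FPKM (ratio 2.00, 0.96 ± 0.04, adjusted p = 2.02e-08). H2-T23, which presents leader peptides to NK receptors, was 44.2, 42.3 and 43.7 against 141, 128 and 152 FPKM (ratio 3.24, 1.67 ± 0.08, adjusted p = 5.23e-08). The knockouts were higher in all 3 libraries for each gene, with narrow spread within groups. Of 17 class II and costimulation genes, 11 were called higher and 1 lower, with a median of 0.60. H2-Eb1, a class II beta chain, was 48.0, 49.2 and 58.0 against 119, 108 and 111 FPKM (ratio 2.18, 1.11 ± 0.08, adjusted p = 6.33e-07), a level that the male libraries shared (means 121 and 119). The 1 lower gene, H2-Ob, reached the filter on level only with the female controls counted, so nothing is read from its call.

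Chemokines and cytokines were higher in most cases. Of 19 chemokines 15 were called higher and 2 lower (median log2 difference 1.24), and of 18 cytokines and antagonists 14 were called higher and 0 lower (0.77). Ccl2, the monocyte attractant, was 1.10, 2.58 and 3.08 FPKM in controls and 29.0, 45.7 and 69.3 in knockouts (ratio 21.3, 3.88 ± 0.29, adjusted p = 1.53e-06), the knockouts differing among themselves by over 2-fold. Ccl12, its neighbour on chromosome 11, was listed at 0, 0.498 and 0.377 FPKM in controls and at 15.1, 14.4 and 28.6 in knockouts (3.93 ± 0.24, adjusted p = 2.76e-07). Both ran from near silence to clear expression. Ccl9, a CC chemokine that osteoclasts themselves make, went the other way at 485, 514 and 498 against 381, 417 and 392 FPKM (ratio 0.794, −0.33 ± 0.05, adjusted p = 0.000274). Cxcl14, a chemokine for monocytes and dendritic cells, had the largest fall of the 2 lower chemokines, at 12.9, 13.3 and 11.3 against 2.87, 2.98 and 2.76 FPKM (ratio 0.229, −1.80 ± 0.16, adjusted p = 5.01e-06). Among cytokines, Il1b was 1.48, 1.57 and 2.58 against 17.2, 14.6 and 17.5 FPKM (ratio 8.76, 2.62 ± 0.20, adjusted p = 1.45e-06), and Tnfsf10, the death ligand TRAIL, was 0.202, 0.122 and 0.230 against 1.86, 1.80 and 2.32 (ratio 10.8, 1.33 ± 0.09, adjusted p = 4.51e-07). Il18bp, the decoy that binds interleukin 18, rose as well, from 2.29, 2.63 and 2.45 to 11.9, 10.7 and 14.7 FPKM (ratio 5.05, 1.95 ± 0.11, adjusted p = 1.65e-07).

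Genes of macrophage activation rose with them. Acod1, which makes itaconate, was 5.72, 5.95 and 8.61 FPKM in controls and 91.9, 90.8 and 103 in knockouts (ratio 14.1, 3.65 ± 0.12, adjusted p = 4.81e-09). Gch1, the entry enzyme of tetrahydrobiopterin synthesis, was 3.94, 4.13 and 4.54 against 9.45, 9.79 and 10.8 FPKM (ratio 2.38, 1.08 ± 0.06, adjusted p = 1.60e-07). Of 16 genes for activation enzymes and acute-phase proteins 11 were called higher and 2 lower. The lower ones were the cystine transporter Slc7a11 (ratio 0.690, adjusted p = 0.00174) and fibronectin, Fn1 (ratio 0.722, adjusted p = 0.0124). Of 19 Fc receptor and complement genes 16 were called higher and 2 lower, with a median of 1.05. Itgax, CD11c, a chain of complement receptor 4, was one of the lower ones. Its libraries read 37.2, 36.7 and 31.9 FPKM in controls and 10.3, 11.5 and 10.3 in knockouts, with no overlap (ratio 0.304, −1.63 ± 0.11, adjusted p = 7.91e-07).

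Markers of monocytes and macrophages moved in the same samples. Of 20 tested, 17 were called higher and 2 lower, with a median log2 difference of 0.96 and a summed level of 7479 to 9190 FPKM in controls and 12658 to 13904 in knockouts. Maf, a transcription factor of tissue macrophages, was 3.37, 3.60 and 4.31 FPKM in controls and 20.1, 19.6 and 24.0 in knockouts (ratio 5.65, 2.22 ± 0.08, adjusted p = 1.01e-08). Adgre1, the F4/80 antigen, had a ratio of 3.65 (adjusted p = 1.26e-08). Cd36, a scavenger receptor for lipoproteins, was 155, 152 and 127 against 98.7, 98.6 and 112 FPKM (ratio 0.713, −0.48 ± 0.09, adjusted p = 0.00115), and Cx3cr1, the fractalkine receptor, had a ratio of 0.697 (adjusted p = 0.00435), so the list did not rise as a whole. Dendritic cell markers were mixed, with 6 of 12 higher and 2 lower and 5 of the 16 listed under 1 FPKM in all 6 libraries. Ccl22 and Fscn1 rose by ratios of 3.44 and 3.40, while Siglech, a marker of plasmacytoid cells, fell (ratio 0.609, adjusted p = 0.00357). The part that macrophage and dendritic cell number had in the interferon, MHC and Fc receptor results was not tested.

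**Figure D3:**
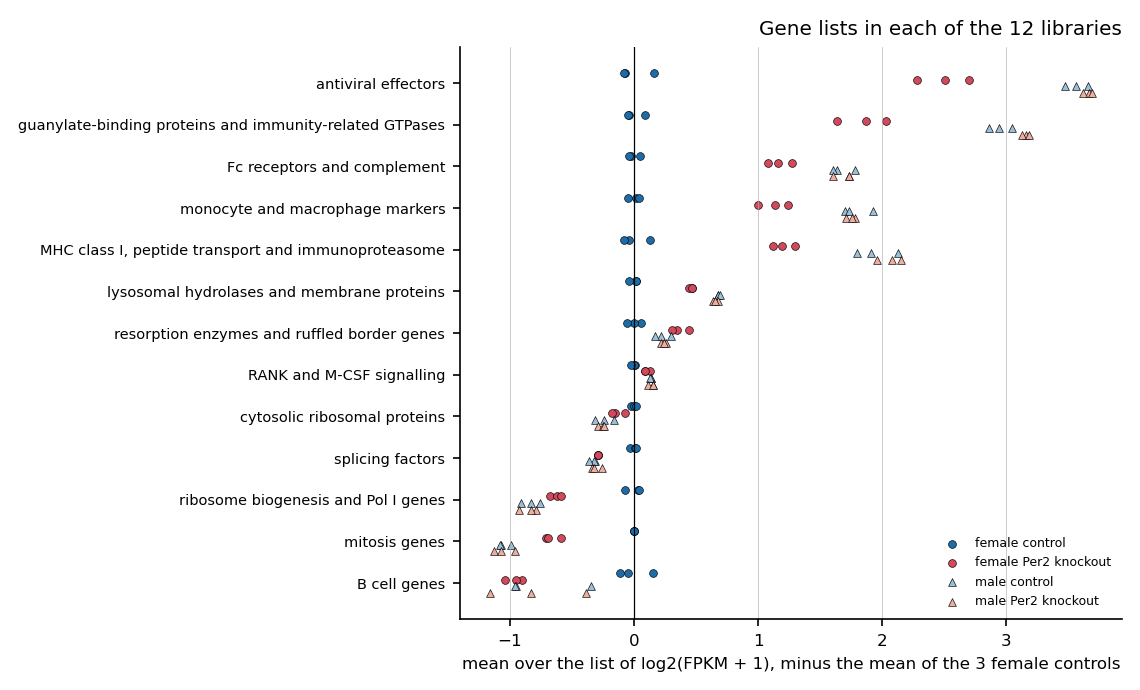
Mean over the tested members of 13 gene lists of log2(FPKM + 1), minus the mean of the 3 female controls (horizontal axis), 1 point per library, circles for female and triangles for male libraries. The antiviral effectors lie at 2.28 to 2.70 in the female knockouts and at 3.47 to 3.69 in the male libraries, and the mitosis genes at −0.71 to −0.59 and −1.13 to −0.96. Of the 11 B cell genes, 3 reached the filter on level only with the female controls counted, so nothing is read from their mean.

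NF-kB and immediate early genes did not move as one. Of 26 NF-kB subunits and feedback genes, 9 were called higher and 6 lower, against 5 and 11 with assigned reads, and the median log2 difference of 0.05 (0.06 after median-ratio rescaling) turned to −0.05 there. Among the higher ones, Ier3 had a ratio of 2.63 (adjusted p = 6.80e-07). Nfkbiz, an inducible cofactor of NF-kB, was 2.02, 1.63 and 2.10 FPKM in controls and 4.52, 4.65 and 5.02 in knockouts (ratio 2.47, 0.98 ± 0.08, adjusted p = 2.16e-06), and Relb had a ratio of 1.3 (adjusted p = 0.000416). Among the lower ones, Malt1 was 12.5, 13.4 and 13.2 against 6.59, 6.78 and 6.37 FPKM (ratio 0.504, −0.89 ± 0.05, adjusted p = 1.83e-07). Ikbkg, NEMO, the scaffold of the kinase complex, was 17.0, 17.4 and 16.1 against 12.4, 12.3 and 11.9 FPKM (ratio 0.726, −0.43 ± 0.04, adjusted p = 1.32e-05), and Traf2, a TNF receptor adaptor, had a ratio of 0.850 (adjusted p = 0.00221). Of 22 immediate early and AP-1 genes, 15 were called higher and 4 lower (0.65). The early growth response factors split. Egr1 was 1.37, 1.41 and 1.92 against 18.1, 23.6 and 23.5 FPKM (ratio 13.9, 3.14 ± 0.10, adjusted p = 5.54e-09), above every male library as well, where the means were 11.4 and 8.18 FPKM. Egr2 was 14.9, 16.6 and 14.8 against 4.28, 4.42 and 4.90 FPKM (ratio 0.294, −1.57 ± 0.15, adjusted p = 8.56e-06), near the male means of 4.32 and 3.69 FPKM. Myc, the growth regulator, was 46.2, 48.5 and 52.6 against 31.1, 35.2 and 40.7 FPKM (ratio 0.726, −0.46 ± 0.10, adjusted p = 0.00326), and its paralog Mycl had a ratio of 0.351 (−1.28 ± 0.15, adjusted p = 3.30e-05).

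Effectors of lytic cell death were higher, with 11 of 15 called and 0 lower (median 0.52). Mlkl, the pore-forming executor of necroptosis, was 11.2, 10.9 and 10.9 FPKM in controls and 30.7, 29.0 and 34.4 in knockouts (ratio 2.85, 1.43 ± 0.06, adjusted p = 1.20e-08), and Casp1, which activates interleukin 1 beta, was 15, 15 and 17.1 against 34.5, 30.4 and 33.6 FPKM (ratio 2.09, 1.02 ± 0.07, adjusted p = 5.17e-07). Both groups were tight and apart. Of 14 BCL2 family genes, 9 were higher and 1 lower, and 9 and 4 with assigned reads, the higher ones including both the survival factor Mcl1 (ratio 1.32, adjusted p = 2.96e-05) and the death promoters Bad (1.41, adjusted p = 1.24e-05) and Bid (1.31, adjusted p = 0.000322). Bmf, a sensor that promotes apoptosis, was the lower one (ratio 0.717, adjusted p = 0.00814).

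Genes of osteoclast function were moderately higher or did not pass, on a scale small beside the interferon genes. Of 21 resorption enzymes and ruffled border genes, 15 were called higher and 0 lower, with a median log2 difference of 0.37 (0.39 after median-ratio rescaling), and 12 with assigned reads. Acp5 was 2108, 1861 and 1831 FPKM in controls and 2395, 2799 and 2334 in knockouts (ratio 1.3, 0.37 ± 0.08, adjusted p = 0.00227). Mmp9, a gelatinase of osteoclasts, was 2464, 2325 and 2209 against 3036, 3482 and 2941 FPKM (ratio 1.35, 0.43 ± 0.08, adjusted p = 0.00115). Neither overlapped between groups, and both calls were lost with quantile normalization (adjusted p = 0.832 for Acp5 and 0.117 for Mmp9) and without the filter on level (0.0708 and 0.0621). Ctsk was 4539, 4386 and 4195 against 4645, 5798 and 4606 FPKM and did not pass (ratio 1.15, 0.19 ± 0.09, adjusted p = 0.104), though it did with voom and median-ratio library sizes (adjusted p = 0.0398), an alternative added after seeing the data. Knockout replicate 2 was the highest library for all 3 of these genes. Clcn7, the chloride channel of the ruffled border, was 76.7, 69.0 and 66.3 against 103, 110 and 104 FPKM (ratio 1.5, 0.58 ± 0.06, adjusted p = 9.39e-06), and Mmp14 had a ratio of 1.3 (adjusted p = 2.71e-05). Of 18 proton pump subunits 12 were higher and 0 lower (median 0.22), and 6 with assigned reads. Atp6v0d1 was 69.7, 72.8 and 68.8 against 103, 101 and 101 FPKM (ratio 1.44, 0.52 ± 0.04, adjusted p = 1.95e-06).

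The receptors and kinases that start the osteoclast program showed no common direction. Of 27 RANK and M-CSF signalling genes, 11 were called higher and 8 lower, with a median log2 difference of 0.08 that became −0.02 with assigned reads. Tnfrsf11a, the receptor RANK, was 34.1, 34.7 and 33.5 FPKM in controls and 33.9, 37.3 and 37.4 in knockouts, and its adaptor Traf6 was 7.27, 8.04 and 7.49 against 8.38, 8.80 and 7.68 FPKM. Both overlapped and neither passed (adjusted p = 0.204 and 0.124), but Traf6 passed without knockout replicate 3 (adjusted p = 0.0419). Csf1r, the M-CSF receptor, was 194, 197 and 194 against 242, 236 and 232 FPKM (ratio 1.22, 0.28 ± 0.03, adjusted p = 4.85e-05), a call lost with quantile normalization (adjusted p = 0.179). Tnfrsf11a, Traf6 and Csf1r lie outside the naming rule and were chosen after their values were seen. Nfatc1 was 56.6, 53.8 and 53.1 against 46.0, 52.2 and 44.7 FPKM (ratio 0.874, −0.19 ± 0.07, adjusted p = 0.0378), a fall whose call was lost after median-ratio rescaling (adjusted p = 0.0631) and without control replicate 1, 2 or 3 or knockout replicate 1 or 3 (adjusted p = 0.056 to 0.132). Ppp3ca, a catalytic chain of the calcineurin that activates NFATc1, had a ratio of 1.25 (adjusted p = 2.31e-05). Mitf, a myeloid partner of NFATc1, was 22.9, 24.0 and 21.9 against 16.9, 17.4 and 16.7 FPKM (ratio 0.741, −0.41 ± 0.05, adjusted p = 2.57e-05), and Prdm1, Blimp1, which removes repressors of Nfatc1, was 21.4, 22.1 and 19.9 against 14.6, 16 and 13.0 FPKM (ratio 0.689, −0.51 ± 0.07, adjusted p = 0.000143).

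Repressors of osteoclast formation were higher in 16 of 20 tested and lower in 1, with a median log2 difference of 0.50 (0.52 after median-ratio rescaling). Zfp36l1, an RNA-binding protein that destabilizes mRNA, was 14.5, 14.5 and 15.6 FPKM in controls and 34.0, 34.1 and 37.6 in knockouts (ratio 2.37, 1.19 ± 0.06, adjusted p = 7.82e-08), and its relative Zfp36 had a ratio of 3.39 (1.71 ± 0.05, adjusted p = 4.81e-09). The groups did not overlap for either, and the male means of Zfp36l1 were higher still at 51.4 and 50.5 FPKM. Nfe2l2, the oxidative stress factor NRF2, was the 1 lower member (ratio 0.804, adjusted p = 0.00154).

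**Figure D4:**
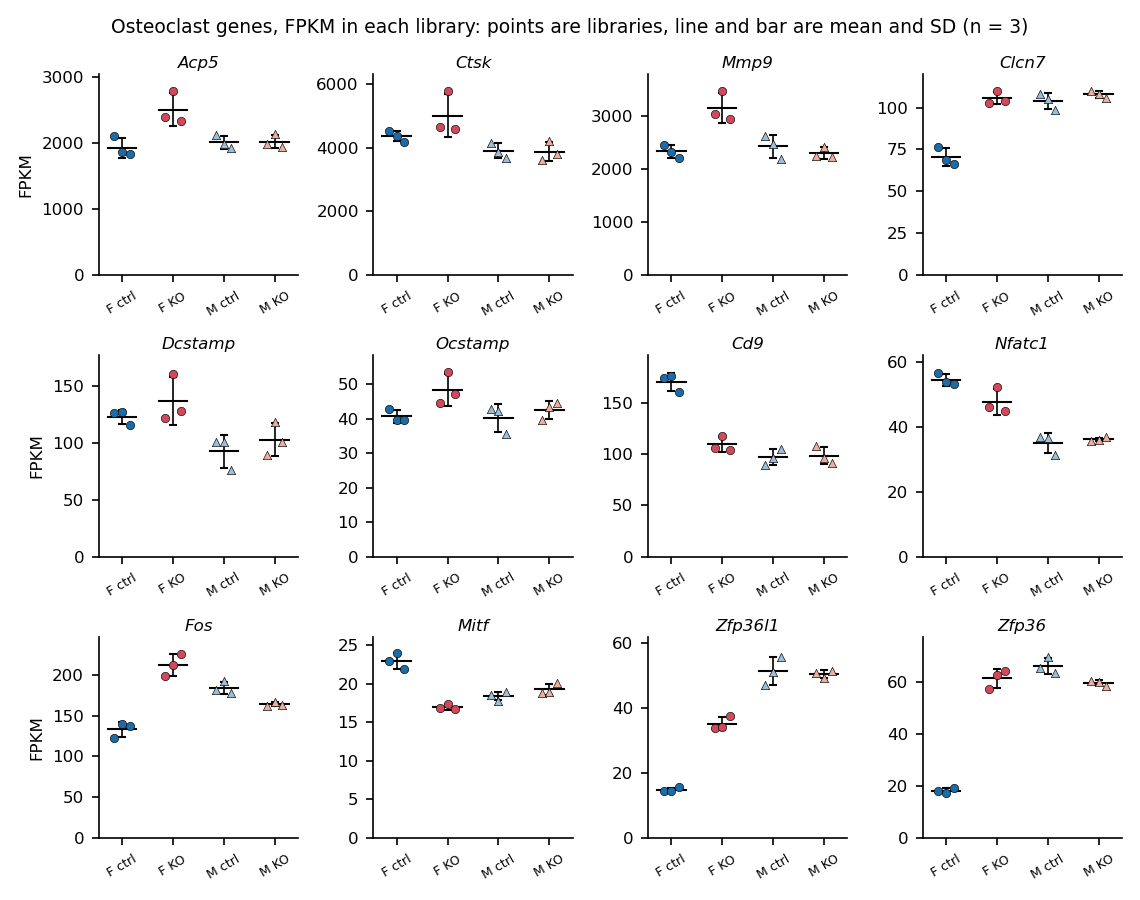
FPKM (vertical axes, linear from 0) of 12 genes of osteoclast function, fusion and regulation in each of the 12 libraries, circles for female and triangles for male libraries, with a line and bar for mean and SD (n = 3). Acp5, Mmp9 and Clcn7 are higher in the female knockouts than in the female controls, Cd9 and Mitf lower, and Zfp36l1 and Zfp36 show the widest gaps relative to their level.

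Cell fusion genes included both rises and falls. Of 16 tested, 9 were called higher and 2 lower, and 7 and 2 with assigned reads. Dcstamp, the fusion receptor induced by RANKL, was 126, 127 and 116 FPKM in controls and 122, 161 and 128 in knockouts and did not pass (ratio 1.11, adjusted p = 0.41). Ocstamp, which works beside it, was 42.8, 39.6 and 39.8 against 44.5, 53.7 and 47.1 FPKM (ratio 1.19, 0.24 ± 0.08, adjusted p = 0.0332), a call lost with assigned reads (adjusted p = 0.208) and without control replicate 2 or 3 or knockout replicate 2 or 3 (adjusted p = 0.0538 to 0.128). The pair Cd47 and Sirpa, a ligand and its receptor that act at contact between macrophages, both rose. Sirpa was 190, 187 and 179 against 273, 258 and 267 FPKM (ratio 1.44, 0.52 ± 0.04, adjusted p = 1.53e-06), and Cd47 had a ratio of 1.64. The tetraspanins differed in sign. Cd81 was 7.86, 8.82 and 8.90 against 15.4, 14.2 and 16.6 FPKM (ratio 1.80, 0.78 ± 0.07, adjusted p = 4.41e-06), and Cd9, far more abundant here, was 174, 176 and 160 against 106, 118 and 104 FPKM (ratio 0.643, −0.63 ± 0.08, adjusted p = 5.59e-05). Cd44, the hyaluronan receptor, was the other lower member (ratio 0.868, adjusted p = 0.00431).

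Actin and lysosome genes were mostly higher. Of 29 actin, podosome and integrin genes, 20 were called higher and 4 lower, and 12 and 6 with assigned reads. Actb, cytoplasmic beta actin, was 1068, 1050 and 1096 FPKM in controls and 1577, 1743 and 1802 in knockouts (ratio 1.59, 0.67 ± 0.05, adjusted p = 2.00e-06), while Myo10, a myosin of filopodia, was 21.9, 22.4 and 21.2 against 16.3, 16.9 and 16.5 FPKM (ratio 0.759, −0.38 ± 0.09, adjusted p = 0.00406). Of 30 lysosomal genes, 28 were called higher and 0 lower, with a median log2 difference of 0.46. Npc2, which carries cholesterol out of the lysosome, was 175, 176 and 178 against 357, 348 and 364 FPKM with little spread in either group (ratio 2.02, 1.01 ± 0.04, adjusted p = 2.18e-08). Psap, the precursor of the saposins, was 1427, 1439 and 1327 against 2379, 2204 and 2234 FPKM (ratio 1.63, 0.70 ± 0.05, adjusted p = 5.27e-07). Of 12 coupling factors through which osteoclasts act on osteoblasts, 5 were higher and 1 lower. Osm, oncostatin M, was 1.43, 1.01 and 1.45 against 3.69, 4.15 and 3.47 FPKM (ratio 2.90, 1.06 ± 0.11, adjusted p = 2.22e-05), Tgfb1 had a ratio of 1.53 (adjusted p = 1.62e-06), and Pdgfb, a growth factor made by preosteoclasts, was the lower one (ratio 0.822, adjusted p = 0.00202).

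The falls were smaller, and most members of several lists of growth genes were among them. Single genes with the largest falls are given further below. Of 33 tested genes for ribosome biogenesis and RNA polymerase I, 32 were called lower and 0 higher under both scalings and with assigned reads, with a median log2 difference of −0.65. Dkc1, dyskerin, which modifies ribosomal RNA, was 27.4, 30.4 and 30.6 FPKM in controls and 13.3, 12.7 and 13.4 in knockouts (ratio 0.445, −1.11 ± 0.08, adjusted p = 7.50e-07). Utp20, a component of the small subunit processome, was 10.2, 11 and 11.2 against 5.06, 5.09 and 5.40 FPKM (ratio 0.479, −0.93 ± 0.06, adjusted p = 3.95e-07), and Tsr1, needed for small subunit maturation, was 16.4, 16.2 and 16.3 against 8.03, 8.12 and 8.17 FPKM (ratio 0.498, −0.92 ± 0.05, adjusted p = 1.69e-07). None of these 3 overlapped between groups. Polr1c, a subunit shared by RNA polymerases I and III, was the 1 gene not called, at 14.5, 16.2 and 14.3 against 15.6, 16.8 and 15.4 FPKM (adjusted p = 0.29). Of 45 ribosomal proteins themselves 24 were lower and 3 higher (median −0.15), and 34 and 1 with assigned reads, with Rpsa at a ratio of 0.778 (adjusted p = 3.98e-05). Among the 45, 1 reached the filter on level only with the female controls counted. Rps28 was one of the higher ones at 68.1, 75.8 and 62.3 against 91.7, 128 and 94.1 FPKM (ratio 1.52, adjusted p = 0.00287), and ribosomal protein genes have many processed copies that could share reads. Of 34 translation factors and tRNA synthetases 17 were lower and 4 higher, and 26 and 2 with assigned reads, among the lower Eif4a1, the helicase of the cap-binding complex (ratio 0.783, adjusted p = 0.000196), and among the higher Eif4ebp1, which blocks assembly of that complex (ratio 1.42, adjusted p = 0.000116).

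Splicing factors and chaperones followed. Of 41 splicing factors 37 were called lower and 1 higher (median log2 difference −0.27). Clk1, the kinase that phosphorylates SR proteins, was 15.8, 17.3 and 16.2 FPKM in controls and 9.0, 8.46 and 7.27 in knockouts (ratio 0.501, −0.92 ± 0.07, adjusted p = 1.55e-06), and Srsf3 was 51.4, 52.8 and 54.5 against 35.5, 34.9 and 37.2 FPKM (ratio 0.678, −0.55 ± 0.05, adjusted p = 2.91e-06). Srsf5 was the 1 higher member (ratio 1.16, adjusted p = 0.00216), a call lost with assigned reads (adjusted p = 0.0793). Of 24 cytosolic and mitochondrial chaperones 17 were lower and 1 higher (−0.26). Hsp90aa1, the inducible HSP90, was 273, 300 and 279 against 167, 182 and 174 FPKM (ratio 0.613, −0.70 ± 0.06, adjusted p = 6.23e-06), and Cct5, a subunit of the ring that folds actin and tubulin, had a ratio of 0.737 (adjusted p = 2.08e-05). Chaperones of the endoplasmic reticulum went the other way. Of 22 unfolded protein response genes 16 were higher and 2 lower (0.29), with Calr, calreticulin, at 298, 329 and 324 against 539, 577 and 582 FPKM (ratio 1.78, 0.83 ± 0.07, adjusted p = 3.18e-06) and Hspa5, BiP, at a ratio of 1.43 (adjusted p = 2.45e-05). The sensors Ern1, IRE1, and Atf6 were the 2 that fell (ratios 0.819 and 0.914).

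Dividing cells, or transcripts of division, were lower in female knockouts. All 26 mitosis genes were called lower under both scalings and with assigned reads, with a median log2 difference of −0.65, and in all 26 the knockouts lay between the female controls and the 6 male libraries. Mki67, the proliferation antigen, was 42.3, 41.9 and 40.5 FPKM in controls and 22.6, 20.9 and 22.2 in knockouts (ratio 0.526, −0.90 ± 0.05, adjusted p = 1.42e-07), and Cdk1, the mitotic kinase, was 26.6, 26.8 and 26.9 against 14.3, 14.5 and 13.2 FPKM (ratio 0.522, −0.89 ± 0.05, adjusted p = 2.35e-07). Both had little spread within a group and no overlap. Of 32 DNA replication genes 20 were lower and 0 higher (median −0.31). Rrm2, the subunit of ribonucleotide reductase made in S phase, was 40.1, 43.5 and 41.1 against 28.2, 26.9 and 27.9 FPKM (ratio 0.666, −0.57 ± 0.06, adjusted p = 2.29e-05), and Ccne2, cyclin E2, had a ratio of 0.611 (adjusted p = 3.14e-05). Of 30 chromatin regulators 12 were lower and 2 higher, and 17 and 0 with assigned reads, including Hmgb1, at 19.1, 20.4 and 19.0 against 12.6, 13.0 and 13.5 FPKM (ratio 0.669, −0.55 ± 0.05, adjusted p = 1.02e-05).

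**Figure D5:**
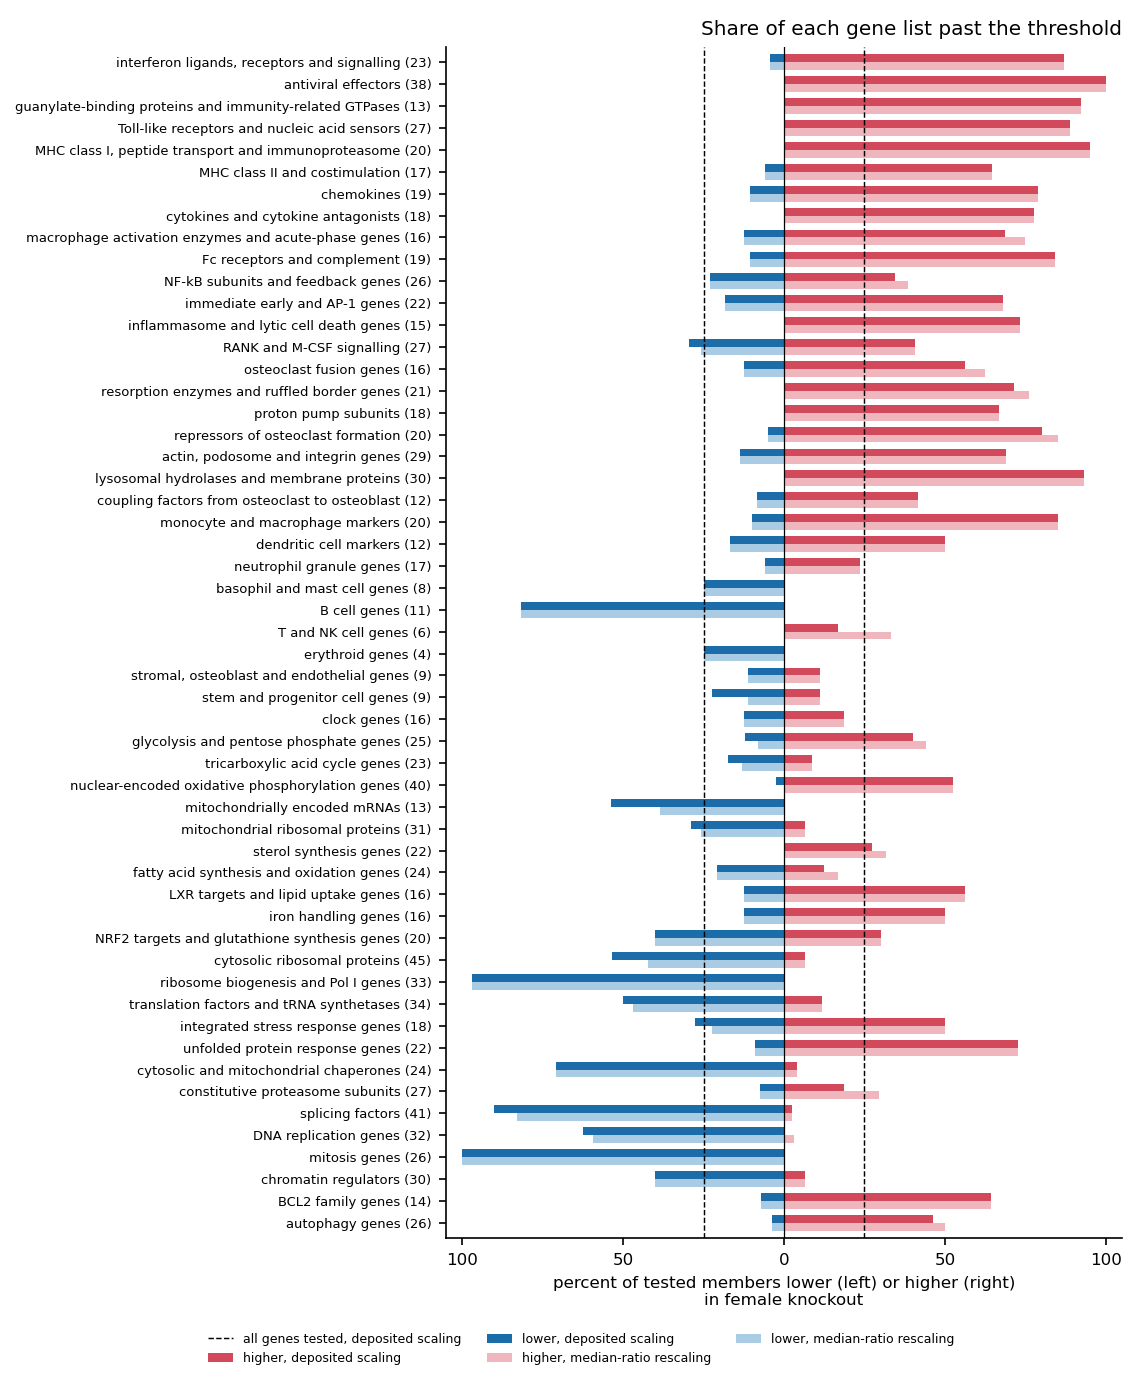
Share of the tested members of each of 54 gene lists called lower (left) and higher (right) in female knockouts, in percent, with dark bars for the deposited scaling, pale bars for median-ratio rescaling and dashed lines at the 24.9% of all genes called in each direction. The antiviral effectors are all higher and the mitosis genes all lower (38 and 26 tested), and the tricarboxylic acid cycle, sterol and proteasome lists stay near or inside the dashed lines. Of the 11 B cell genes, 3 reached the filter on level only with the female controls counted, so nothing is read from the bars of that list.

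Energy metabolism changed less and in mixed directions. Of 40 nuclear-encoded oxidative phosphorylation genes 21 were called higher and 1 lower (median log2 difference 0.17), and 9 and 6 with assigned reads. Cox5b, a subunit of cytochrome oxidase, was 71.6, 72.9 and 69.9 FPKM in controls and 97.3, 107 and 91.1 in knockouts (ratio 1.38, 0.45 ± 0.05, adjusted p = 4.32e-05). Of the 13 mRNAs made in the mitochondrion 7 were called lower and 0 higher, 5 lower after median-ratio rescaling and 11 with assigned reads. Of these 13, 1 reached the filter on level only with the female controls counted, so nothing is read from its direction. mt-Nd4, a core subunit of complex I, was 1611, 1609 and 1382 against 926, 1079 and 854 FPKM (ratio 0.621, −0.69 ± 0.11, adjusted p = 0.000431). Neither Cox5b nor mt-Nd4 overlapped between groups. Of 31 mitochondrial ribosomal proteins 9 were lower and 2 higher, beside 24.9% of all genes called lower. With assigned reads 19 were lower and 0 higher, beside 35.9% of all genes called lower there. Mrpl12 had a ratio of 0.796 (adjusted p = 0.00107). Of 25 glycolysis and pentose phosphate genes 10 were higher and 3 lower, and 8 and 5 with assigned reads. Hk3, the hexokinase of myeloid cells, was 31.7, 29.0 and 29.8 against 64.1, 60.8 and 69.9 FPKM (ratio 2.15, 1.08 ± 0.06, adjusted p = 7.69e-08), and Pfkfb3, which makes the activator of phosphofructokinase, had a ratio of 1.96 (adjusted p = 7.07e-06). The 3 lower ones were the pentose phosphate enzymes Taldo1, Pgd and Tkt (ratios 0.870, 0.879 and 0.927). The Tkt call was lost after median-ratio rescaling (adjusted p = 0.0501) and without control replicate 3 or knockout replicate 2 (adjusted p = 0.0835 and 0.0715). Of 23 tricarboxylic acid cycle genes 2 were higher and 4 lower, below the share of all genes. With assigned reads 1 was higher and 8 were lower, near the 35.9% of all genes called lower there.

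Lipid, iron and oxidative stress genes held large single changes. Lpl, lipoprotein lipase, was 407, 443 and 410 FPKM in controls and 217, 217 and 235 in knockouts (ratio 0.530, −0.91 ± 0.07, adjusted p = 1.43e-06). Nr1h3, the oxysterol receptor LXR alpha, was 11.5, 9.93 and 10.4 against 30.4, 31.9 and 35.5 FPKM (ratio 3.07, 1.53 ± 0.08, adjusted p = 6.60e-08), and its target Abca1, the cholesterol exporter, had a ratio of 1.97 (adjusted p = 4.46e-07). In all, 9 of 16 LXR and lipid uptake genes were higher and 2 lower, and 6 and 3 with assigned reads. Fasn, fatty acid synthase, fell (ratio 0.682, adjusted p = 2.46e-06). The 24 genes of fatty acid metabolism had 3 higher and 5 lower, with a median log2 difference of 0.03. With assigned reads 3 were higher and 9 lower, with a median of −0.07. That is near the 35.9% of all genes called lower there and their median of −0.10. Among the 24, 1 reached the filter on level only with the female controls counted. Of 16 iron handling genes 8 were called higher and 2 lower, and 6 and 3 with assigned reads. A gene of iron storage and a gene of iron uptake moved apart. Fth1, the ferritin heavy chain, was 984, 1133 and 993 against 2262, 2271 and 2353 FPKM (ratio 2.21, 1.15 ± 0.06, adjusted p = 8.93e-08), and Tfrc, the transferrin receptor, was 355, 334 and 318 against 205, 277 and 231 FPKM (ratio 0.708, −0.51 ± 0.13, adjusted p = 0.00723). Hmox1, which releases iron from heme, had a ratio of 1.85 (adjusted p = 1.26e-05). Of 20 NRF2 and glutathione genes 6 were higher and 8 lower, with Txnrd1, thioredoxin reductase, at 96.5, 107 and 100 against 49.5, 58.1 and 52.3 FPKM (ratio 0.527, −0.91 ± 0.08, adjusted p = 4.89e-06) and Gclc, of glutathione synthesis, at a ratio of 0.583 (adjusted p = 5.10e-06).

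Of 18 integrated stress response genes 9 were called higher and 5 lower, and 7 and 6 with assigned reads. The stress regulators Nupr1 and Ddit3, CHOP, rose. Nupr1 was 2.46, 2.57 and 1.55 FPKM in controls and 8.50, 8.06 and 8.94 in knockouts (ratio 3.87, 1.59 ± 0.12, adjusted p = 1.87e-06), and Ddit3 was 4.67, 4.84 and 4.25 against 9.28, 8.26 and 9.71 FPKM (ratio 1.98, 0.85 ± 0.10, adjusted p = 3.74e-05). Psat1 and Shmt2, enzymes of serine and glycine metabolism, fell, with ratios of 0.685 (adjusted p = 5.01e-05) and 0.709 (adjusted p = 5.68e-05). The 2 chains of the leucine transporter also parted, Slc3a2 rising (ratio 1.61, adjusted p = 1.27e-06) and Slc7a5 falling (ratio 0.660, adjusted p = 0.000217). Of 26 autophagy genes 12 were higher and 1 lower, and 7 and 6 with assigned reads, with Map1lc3a at a ratio of 1.82 (adjusted p = 4.08e-06). Of 27 constitutive proteasome subunits 5 were higher and 2 lower, with a median of 0.02. With assigned reads 1 was higher and 8 lower, with a median of −0.09. Over all genes 35.9% were called lower there, with a median of −0.10.

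The largest fall among well-expressed genes was that of Mmp12, the macrophage elastase. Its libraries read 184, 190 and 152 FPKM in controls and 28.6, 33.4 and 30.4 in knockouts, so the lowest control was several-fold above the highest knockout (ratio 0.176, −2.47 ± 0.28, adjusted p = 2.99e-05). Sumo2, a ubiquitin-like modifier, had the same log2 difference of −2.47, but its knockout libraries were spread over 5.63, 7.62 and 27.4 FPKM (controls 67.5, 53.9 and 71.9). Its call (adjusted p = 0.0206) was lost without control replicate 1 or 3 or knockout replicate 1 or 2 (adjusted p = 0.0507 to 0.0771), and it has processed copies that could share its reads. Other falls were tighter. Gpc1, a heparan sulfate proteoglycan, was 41.4, 41.7 and 41.2 against 14.5, 14.6 and 17.2 FPKM (ratio 0.372, −1.37 ± 0.12, adjusted p = 4.82e-06), and Emp2, a membrane protein of the PMP22 family, was 8.46, 9.40 and 8.97 against 2.92, 3.07 and 2.45 FPKM (ratio 0.314, −1.39 ± 0.08, adjusted p = 2.08e-07). In both the knockouts were near the male libraries, where Gpc1 had means of 14.2 and 11.6 FPKM and Emp2 of 1.88 and 2.20 FPKM. Polr3g, a subunit of RNA polymerase III, fell with a ratio of 0.330 (adjusted p = 4.91e-06). Long noncoding genes changed in both directions too. Mir17hg, the host of the miR-17-92 cluster, was 6.93, 7.64 and 7.55 against 2.68, 2.52 and 3.26 FPKM (ratio 0.383, −1.14 ± 0.08, adjusted p = 7.67e-07), and Snhg5, a snoRNA host, had a ratio of 0.467 (adjusted p = 2.56e-06). Mir142hg, the host of a microRNA of blood cells, rose, at 23.9, 17.1 and 18.3 against 24.5, 34.8 and 26.6 FPKM (ratio 1.45, adjusted p = 0.0216), and lost its call with assigned reads (adjusted p = 0.0518) and without control replicate 2 or 3 or knockout replicate 2 (adjusted p = 0.0679 to 0.086). Without a stated strand setting, reads of a gene and of one that overlaps it cannot be told apart.

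Genes of other blood cells were present too. The 15 B cell genes listed had a summed level of 139 to 164 FPKM in controls and 67.1 to 91.8 in knockouts. Of the 11 tested, 3 reached the filter on level only with the female controls counted, so no count of calls is given for the list. Cd79a, a chain of the B cell receptor, was 8.63, 8.22 and 11.9 FPKM in controls and 3.08, 3.01 and 1.68 in knockouts (ratio 0.270, −1.57 ± 0.35, adjusted p = 0.00331). Control replicate 3 was its highest library. In the male libraries Cd79a was 2.29, 2.99 and 6.11 FPKM in controls and 4.96, 1.57 and 4.71 in knockouts, a range that the female knockouts overlapped. Of 8 basophil and mast cell genes tested 2 were called lower and 0 higher, near the 24.9% of all genes called lower, and 1 of the 8 reached the filter only with the female controls counted. Mcpt8 was 4.83, 3.48 and 10.4 against 2.16, 1.26 and 2.32 FPKM (ratio 0.307, −1.22 ± 0.46, adjusted p = 0.0459), and Prss34 was 21.0, 12.8 and 22.2 against 9.16, 5.66 and 6.85 FPKM (ratio 0.388, adjusted p = 0.02). Both calls were lost with no filter on level (adjusted p = 0.123 and 0.0614), without control replicate 1 (0.0684 and 0.0605) or 3 (0.172 and 0.067) and without knockout replicate 2 (0.131 and 0.0658) or 3 (0.0671 and 0.0503). The Mcpt8 call was also lost with a pseudocount of 5 (adjusted p = 0.0638) and without knockout replicate 1 (adjusted p = 0.0772) or male control replicate 1 or 2 (0.0522 and 0.0538). Neutrophil granule genes were called higher in 4 of 17, near the 24.9% of all genes, and lower in 1. With assigned reads 1 was higher and 1 lower. Their summed level was 2833 to 3050 FPKM in controls and 2701 to 3521 in knockouts. Of the 21 stromal, osteoblast and endothelial genes listed, 9 were tested, 1 of them reaching the filter only with the female controls counted. Of these 9, 1 was called higher and 1 lower, both below the 24.9% of all genes called in each direction. The list's median log2 difference was −0.29, and 11 of the 21 were under 1 FPKM in all 6 libraries. The 1 higher gene, Kdr, a VEGF receptor, was 0.533, 0.456 and 0.702 against 7.54, 5.36 and 8.58 FPKM (ratio 12.7, 2.37 ± 0.12, adjusted p = 8.03e-08). Kdr therefore did not stand for the list. Ly6a, Sca-1, on the list of stem cell genes and itself raised by interferon in mice, was 12.2, 13.2 and 17.1 against 146, 119 and 175 FPKM (ratio 10.4, 3.28 ± 0.20, adjusted p = 3.28e-07), while 2 others of the 9 tested were called lower and the list's median log2 difference of 0.02 became −0.05 with assigned reads.

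Clock genes changed little. Of 16 tested 3 were called higher and 2 lower, fewer than the share of all genes, and the median log2 difference of 0.02 became −0.06 with assigned reads. Per1 was 2.57, 2.91 and 3.10 FPKM in controls and 3.35, 3.56 and 3.92 in knockouts, without overlap (ratio 1.26, 0.26 ± 0.10, adjusted p = 0.0446), a call lost with assigned reads (adjusted p = 0.129), with a pseudocount of 5 (0.0651) and without control replicate 1 or 2, knockout replicate 2 or 3, male control replicate 1 or male knockout replicate 3 (0.0567 to 0.144). Bhlhe40, the E-box repressor DEC1, was 58.4, 56.5 and 56.6 against 46.0, 48.1 and 44.8 FPKM (ratio 0.810, −0.30 ± 0.06, adjusted p = 0.00108), and Clock itself was 3.80, 4.09 and 4.05 against 3.25, 3.57 and 3.47 (ratio 0.862, adjusted p = 0.0264), a call lost without control replicate 2 or 3 or knockout replicate 1 or 3 (adjusted p = 0.0504 to 0.0945). Nfil3, a repressor of clock output genes, and Timeless rose, with ratios of 1.46 (adjusted p = 0.0149) and 1.41 (adjusted p = 0.00151). Cry1, Cry2, Arntl, which encodes BMAL1, Nr1d1, Nr1d2 and Dbp had ratios of 0.892 to 1.11, overlapped between the groups and did not pass (adjusted p = 0.463 to 0.918). Per3 was not among the genes tested. All libraries were taken on day 4 and the labels give no clock time.

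The difference between the female and the male effect of the genotype was tested in the same model. Limma called 2165 genes with a higher effect in females (17.9%) and 2020 with a lower one (16.7%), 34.6% in all. This test contains the female difference itself, so genes named for that difference are not independent of it. For Stat2 the effect differed at adjusted p = 1.55e-05, with male control and knockout means of 74.4 and 83.3 FPKM. Mki67 differed at 2.88e-06, with male means of 14.8 and 15.8 FPKM, and Dkc1 at 3.61e-05, with 10.1 and 9.74 FPKM. All 38 antiviral effectors and all 26 mitosis genes passed this test, as did 29 of the 33 ribosome biogenesis genes and 13 of the 21 resorption genes. Genes that were called in females but did not pass the test of the difference include Nfatc1 (adjusted p = 0.0771), Ocstamp (0.329), Per1 (0.54), Clock (0.0579), Fn1 (0.906) and Akt1 (0.433), a kinase downstream of RANK and M-CSF.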

How the data were processed

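RNA sequencing of mouse osteoclast cultures is held in 1 table with 12 columns of FPKM that the authors made and deposited, all of them mapped to samples (0 left over), and 1 line that named no gene was left out. The submitters' processing notes name HISAT2 2.0.5, featureCounts 1.5.0-p3 and the build mm10. For the FPKM denominator and a strand setting nothing was found in the labels. Gene positions in the table could not be matched to that build, so chromosomes are given without positions, except for the RefSeq promoters.

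Values above 0 were whole reads within 0.01 for 100.0% of entries after multiplying FPKM by gene length and the denominator, which gave the depth, 13888150 to 41145397 assigned reads per library. A floor of 3 reads covers counting error only. Genes with at least 1 FPKM in at least 3 libraries, 12102 in number, were fitted with limma 3.58.1 in R 4.3.3 on log2(FPKM + 1), with 4 group means, a trend in the prior variance, two-sided tests and Benjamini-Hochberg adjustment over all genes tested, threshold 0.05. Every adjusted p is from this model unless another setting is named. Median-ratio factors came from 11737 genes with no 0. On data simulated for the female comparison with 12102 genes, of which 200 changed, 85 of 100 were called at a log2 difference of 0.5 and 99 of 100 at 1, with 9 false calls. Few genes changed there and no denominator differed between groups, unlike in the data. These rates therefore describe the fit in that setting and not the calls made here.

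The same numbers mark the same labelled batch, which pairs the libraries. Deviations from group means of same-batch female libraries correlated at r = 0.01 to 0.04 over 3 pairs. Replicates within a female group had r = 0.988 to 0.990 and a chi-square per degree of freedom of 4.61 to 8.75, above sampling noise, so each was counted as 1 sample.

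The members and the 54 gene lists were chosen with earlier results of these data known. Named were the 15 protein-coding genes that rose most and the 15 that fell most, called under both scalings with the same sign in every batch, the 3 long noncoding ones in each direction, the 3 members of each list with the smallest p in each direction, and a set of clock and osteoclast genes. Members set apart as exceptions to a list, and 14 further genes, were chosen after their values were seen. Some results are not reported here. Alternatives were the pseudocount, the filter, the denominator, quantile normalization, voom on the recovered reads, the female libraries alone, the batch as a block and leaving out each library.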

Additional observations from a re-analysis of the deposited data

Results flagged for a closer look

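The effect of the genotype differed between female and male cultures by the test of the difference itself for 2165 genes in the higher direction and 2020 in the lower. The largest differences toward females, in log2 units, were those of Ifit3 (4.25), Irf7 (4.25), Ms4a4c (4.19), the chemokine Cxcl10 (4.18) and the acute-phase gene Saa3 (4.17), and for these 5 the female controls were far below the other 9 libraries. The largest in the other direction were Sumo2 (−3.36), Mmp12 (−2.38), the immunoglobulin gene Iglc2 (−2.00) and the basophil proteases Mcpt8 (−1.91) and Prss34 (−1.90). The values of Sumo2, Mcpt8 and Prss34 include male differences of 0.89, 0.69 and 0.65, none of which passed (limma adjusted p = 0.909, 0.847 and 0.804). For these 3 genes the test of the difference gave limma adjusted p = 0.0342, 0.0411 and 0.0198. Sumo2 has processed copies that could share its reads.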

How the results depend on the processing

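The counts of genes called higher (3018) and lower (3009) in females stayed within 1.5 times under the alternatives run, at 2187 to 3200 and 2122 to 4350, and at 2679 to 3113 and 2563 to 3080 when 1 library was left out. With the labelled batch as a replicate block they were 3024 and 2995, and among the genes named the block ended the calls of Sox4, Ndufb5 and Mrpl2 only. For the lower effect in females than in males (2020), assigned reads gave 3118 and voom 3220; leaving out 1 library gave 1701 to 1934, and 1914 to 2105 for the higher effect. The female libraries alone gave no value for that test. The Per2 ratio of 0.86 became 1.00 without control replicate 2 and 1.03 without knockout replicate 2 (range 0.56 to 1.03). Quantile normalization turned the differences of Cs (−0.07), Mrpl2 (−0.03) and Rpl18 (−0.02), and the cause was not tested. Of 266 genes named, the calls lost were 24 with no filter, 18 with assigned reads, 21 with quantile normalization (the 3 that turned included), 19 with voom and 4 after median-ratio rescaling. At these depths a gene with 0 reads could be present at up to 0.270 FPKM (Ifnb1).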

Other observations

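Cholesterol synthesis changed little beside the other changes. Of 22 sterol genes tested 6 were called higher, near the 24.9% of all genes, and 0 lower. With the assigned reads as the denominator 3 were called in each direction. Insig1, which retains the sterol sensor in the endoplasmic reticulum, was 24.3, 21.9 and 19.1 FPKM in female controls against 30.6, 30.6 and 27.5 FPKM in knockouts (adjusted p = 0.00125), also above the male control mean of 22.1 FPKM.

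Of 16 T cell and natural killer cell genes listed, 10 were below the filter on level. Of the 6 tested 1, Cd4, was called higher and 0 lower. Cd4, the coreceptor of helper T cells, was 2.08, 1.99 and 1.52 against 4.50, 3.25 and 3.32 FPKM (adjusted p = 0.000792). Cd3d, Cd3e and Cd3g, T cell genes of the same list that were not tested, were at most 0.230 FPKM in all 6 female libraries. These 3 were also chosen after their values were seen. The Cd4 difference is therefore not read as one in T cells, and the cells it came from were not tested. Cd2, a T cell adhesion molecule below the filter and not tested, was 1.15, 0.369 and 0.542 against 0.10, 0.191 and 0.152 FPKM, and was chosen after its values were seen. Among transcript classes, processed pseudogenes had 160 of 639 called higher and 67 lower, while snoRNA genes had 4 of 98 higher and 12 lower. Over all genes tested 24.9% were called in each direction, so the share of pseudogenes called higher was near that of all genes. Since reads of multi-copy genes can be shared, the pseudogene counts are uncertain.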
